A study of Mus musculus with 14 samples.

Results

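Evx2 and the Hoxd genes stand in 1 row on mouse chromosome 2 between a pair of gene deserts, and their promoter contacts were read from promoter capture Hi-C (PCHi-C) of cranial neural crest cells (CNCCs). In each list of interactions the pairs were kept whose bait, the captured promoter fragment, held an annotated GENCODE vM21 start site of Evx2, Hoxd13, Hoxd12, Hoxd11, Hoxd10, Hoxd9, Hoxd8, Hoxd4, Hoxd3 or Hoxd1. This gave 10 baits of 22171, and 9 of the 10 genes had one. In PCHi-C, HindIII fragments that touch in the fixed nucleus are ligated, and ligation products with a bait are pulled out before sequencing. Each listed pair carries a CHiCAGO score, the negative natural log of a weighted p-value, set against a background that falls with distance and is estimated for that library. No list held a score below 5, and an unlisted pair was given 0, which stands for any lower score.

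The 14 libraries are 2 per condition. At E10.5, CNCCs were sorted in wild-type embryos from the second pharyngeal arch (PA2), from the mandibular (Md) and maxillary (Mx) parts of the first arch and from the frontonasal process (FNP), and from PA2 of Hoxa2 knockout embryos, and at E12.5 and E14.5 from the wild-type pinna, the external ear that grows from PA2. Wild-type cells were red fluorescent protein-positive cells of Wnt1::Cre;ROSA-RFP embryos, in which the Wnt1 promoter drives Cre in the neural crest before it migrates, and knockout cells were green fluorescent protein-positive cells of Hoxa2 EGFP/EGFP embryos, so genotype and sorting gate cannot be told apart. Embryos were pooled within a library, the background was mixed (C57Bl/6J;CD1), and E14.5 tissue was dissociated with papain but younger tissue with trypsin. The lists hold neither RNA nor marker genes, so the sorted identities and the knockout could not be checked in them. They give no read counts either. The depth is therefore unknown, and the listed pairs number from 119370 to 499756 per library. In Md replicate 1 and E12.5 pinna replicate 2, 46.5% and 62.7% of them join different chromosomes, against 2.64% to 5.61% in the others. For contacts within a chromosome, which all comparisons here use, the libraries list 113670 to 186248 pairs.

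Hox genes encode homeodomain transcription factors that give cells their position along the body, and the neighbours of a cluster are switched on in the order in which they lie. Evx2, a homeobox gene of another family, and Hoxd13 stand at the 5′ end of the row, which acts in posterior tissue, digits and genitalia, and Hoxd1 stands at the 3′ end. The deserts on both sides are known from limb buds, where enhancers of the centromeric desert act on the 5′ genes in the digits and enhancers of the telomeric desert act on the central genes in the forearm. CNCCs of FNP, Mx and Md are Hox-negative, and PA2 and the pinna express Hoxa2.

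On GRCm38, the centromeric desert runs from chr2:73911327-74520290, between Atp5g3 and Lnpk, and is 0.609 Mb long with 202 HindIII fragments. The telomeric desert runs from chr2:74878432-75659260, between Mtx2 and Hnrnpa3, and is 0.781 Mb long with 276 fragments. Neither holds a bait or a protein-coding gene. In order along the chromosome the baits were the Evx2 bait (chr2:74653048-74660557), the Hoxd13 bait (chr2:74663938-74669446), the Hoxd12 bait (chr2:74671993-74677265), the Hoxd10 bait (chr2:74688184-74694887), the Hoxd9 bait (chr2:74694888-74698971) and the Hoxd8 bait (chr2:74702169-74709278). Then came 3 adjoining baits of Hoxd4, called by their start sites here: the Hoxd4/Hoxd3 bait (chr2:74709279-74714061), which is the only bait of Hoxd3, the Hoxd4-201 bait (chr2:74714062-74722149) and the Hoxd4-202 bait (chr2:74722150-74729288), which also holds Mir10b. The Hoxd1 bait (chr2:74762089-74764309) is shared with the long noncoding RNA Haglr. A shared bait cannot tell its genes apart, and it was counted once. Hoxd3 has 5 further start sites outside any bait.

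Hoxd11 is the member without a bait. Its first start site lies 56 bases past the end of a bait of 384 bp (chr2:74679118-74679501), on a fragment that was not captured. That short bait holds no start site, is no member, and is called the bait beside Hoxd11 below. The sequence across the cut is shown because it decides that Hoxd11 is not measured. It covers chr2:74679462-74679577 on the plus strand of GRCm38, and the capitals mark the HindIII site and the first base of Hoxd11.
Hoxd11 start: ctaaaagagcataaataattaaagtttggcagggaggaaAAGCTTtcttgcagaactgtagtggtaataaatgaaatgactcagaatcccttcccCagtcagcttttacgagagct

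Over the 14 libraries, 56.2% of the listed pairs of the 10 baits had their partner in the telomeric desert and 24.9% in the centromeric desert. Another 8.04% lay beyond the centromeric desert, 2.49% beyond the telomeric one, 0.88% inside the row and 7.46% on other chromosomes. Not 1 pair fell between Lnpk and Evx2 or between Hoxd1 and Mtx2, where partners are also close to the baits.

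The row split into a centromeric and a telomeric part between Hoxd12 and Hoxd10, and the split stood at the same place in every library. Evx2 listed 31, 25, 37, 32, 33, 42, 29, 29, 38, 38, 28, 29, 15 and 32 fragments of the centromeric desert in the libraries, given in the order FNP, Mx, Md, PA2, PA2 Hoxa2 knockout, E12.5 pinna and E14.5 pinna with replicate 1 before replicate 2. Hoxd13, which patterns the digits, listed 27, 29, 28, 28, 30, 31, 27, 24, 29, 29, 20, 24, 13 and 20 in the same order. Hoxd12, its neighbour and partner in the digits, listed 17, 16, 13, 16, 21, 24, 18, 17, 15, 19, 11, 10, 5 and 10. Each of the 3 had partners there in all 14 libraries, and their counts were lower in the order of the row in 13 of 14 libraries. The exception was FNP replicate 2, with 25 for Evx2 and 29 for Hoxd13. In the telomeric desert they listed few fragments, with at most 3 in a library for Evx2, 2 for Hoxd13 and 3 for Hoxd12.

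On the far side of the split the sides were exchanged. Hoxd10 listed 11 to 19 telomeric fragments with a median of 17, and Hoxd9 listed 16 to 27 with a median of 23. Both belong to the group of genes that act in the upper limb and trunk. Hoxd8 listed 14 to 33 with a median of 28. Among the Hoxd4 baits, Hoxd4/Hoxd3 listed 23 to 39, Hoxd4-201 listed 25 to 42 and Hoxd4-202 listed 11 to 28. Hoxd1 listed fewest, with 1 to 15. In the centromeric desert, Hoxd8, Hoxd4/Hoxd3, Hoxd4-201 and Hoxd1 listed no fragment in any library, Hoxd9 and Hoxd4-202 listed 1 in 1 library each, and Hoxd10 listed 1 or 2 in 5 libraries.

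**Figure D1:**
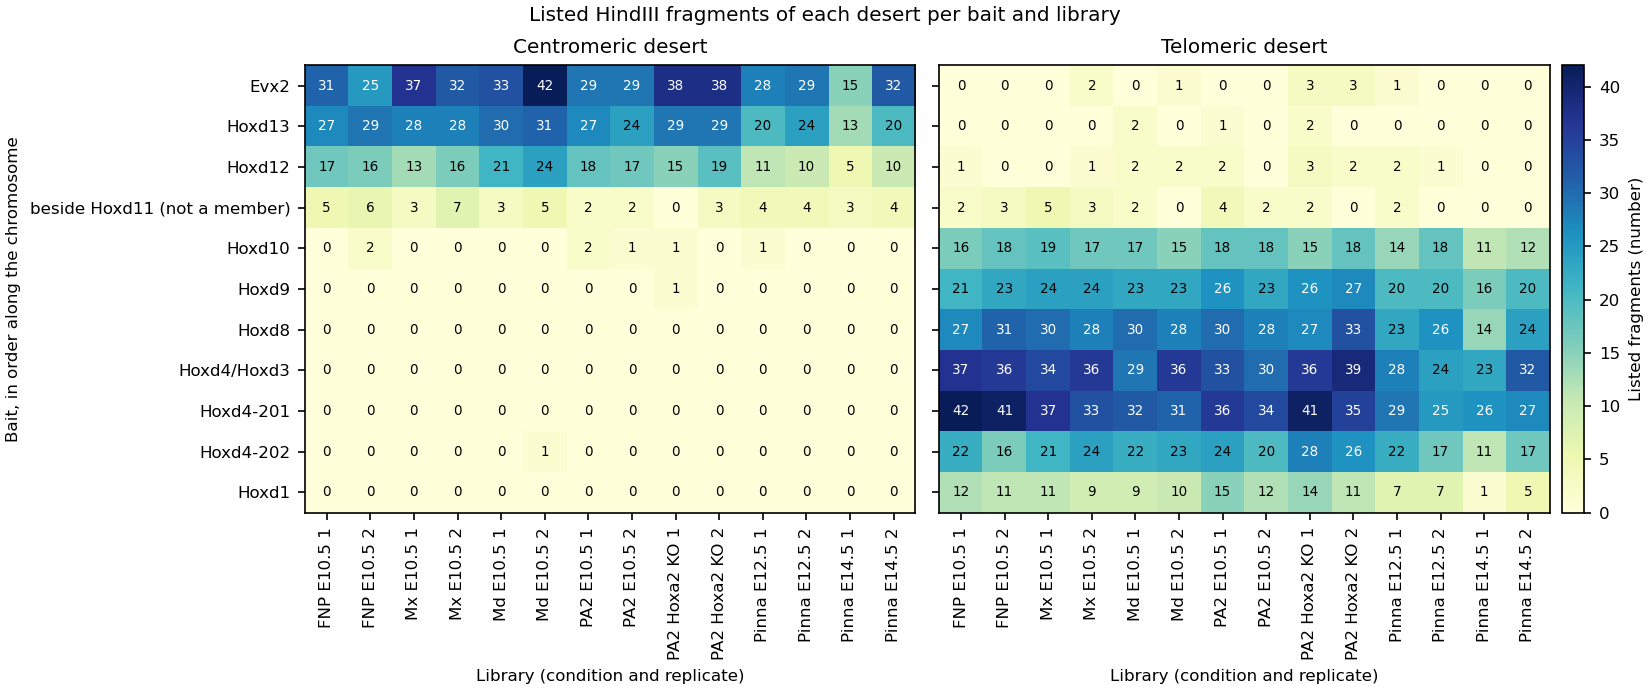
Number of listed HindIII fragments (CHiCAGO score of 5 or more) in the centromeric desert (left) and the telomeric desert (right), for each bait (rows, in order along the chromosome) and library (columns), with the number printed in each cell and shown by colour. Evx2, Hoxd13 and Hoxd12 fill the left panel and Hoxd10 to Hoxd1 the right one, while the bait beside Hoxd11 has 0 to 7 on the left and 0 to 5 on the right.

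As a share of the fragments listed in both deserts together, the telomeric desert held 1.88% ± 2.90 (SD, n = 14) for Evx2, 1.16% ± 2.39 for Hoxd13 and 6.32% ± 5.74 for Hoxd12. It held 97.3% ± 3.99 for Hoxd10, 99.7% ± 0.990 for Hoxd9 and 99.7% ± 1.11 for Hoxd4-202, and 100% for Hoxd8, Hoxd4/Hoxd3, Hoxd4-201 and Hoxd1 in all 14 libraries. The bait beside Hoxd11 lay between these groups, with 31.7% ± 30.7, and its libraries ran from 0% to 100% on counts of a few fragments. For summed score the split was the same. Evx2 had a summed centromeric score of 286 ± 58.3, Hoxd13 had 229 ± 42.3 and Hoxd12 had 118 ± 37.5, against 24.6 ± 12.8 for the bait beside Hoxd11 and 2.92 ± 4.58 for Hoxd10. Telomeric sums were higher along the row, from 158 ± 31.3 for Hoxd10 over 238 ± 41.2 for Hoxd9 and 310 ± 62.1 for Hoxd8 to 362 ± 64.9 for Hoxd4/Hoxd3 and 372 ± 68.5 for Hoxd4-201, and were 195 ± 43.0 for Hoxd4-202 and 63.3 ± 26.3 for Hoxd1. Hoxd4/Hoxd3 and Hoxd4-201 differed by less than their spread over libraries. No test was made of the order, since baits differ in length and capture.

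Contacts to 1 side are common in these data. How often neighbouring baits elsewhere change sides was not counted. Among 12544 baits with a partner at 100 kb to 1 Mb in 12 or more libraries, the median bait had 96.3% of its score on its stronger side, and 35.4% had at least 99% there. The member baits had 94.3% (Hoxd12) to 100%. Their summed score over both sides was 63.3 for Hoxd1 and 127 to 373 for the others, against a median of 34.8. Of those baits 1.18% exceeded Hoxd4-201, 2.30% exceeded Evx2, 7.81% exceeded Hoxd10, 11.6% exceeded Hoxd12 and 28.9% exceeded Hoxd1.

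Partners that recurred were few and belonged to 1 desert each. In 12 or more of the 14 libraries Evx2 listed 18 centromeric fragments of the 55 it ever listed, Hoxd13 listed 14 of 50 and Hoxd12 listed 7 of 41. All 7 recurrent partners of Hoxd12 were also recurrent partners of Evx2 and of Hoxd13, and 13 were shared by Evx2 and Hoxd13, which is 72.2% of those of Evx2 and 92.9% of those of Hoxd13. In the telomeric desert Hoxd10 had 12 recurrent partners of 32, Hoxd9 had 16 of 44, Hoxd8 had 18 of 53, Hoxd4/Hoxd3 had 19 of 63, Hoxd4-201 had 22 of 65, Hoxd4-202 had 13 of 42 and Hoxd1 had 1 of 27. All 12 of Hoxd10 were among those of Hoxd9, and all 19 of Hoxd4/Hoxd3 were among those of Hoxd4-201. No recurrent partner was shared across the split. Neighbouring baits and neighbouring partners are close together on the chromosome, so these overlaps are not independent of each other.

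The recurrent partners were 19 centromeric and 25 telomeric fragments. Of the centromeric ones 16 were intergenic and 3 overlapped an exon, and of the telomeric ones 14 were intergenic, 5 lay in introns and 6 overlapped an exon, all of long noncoding RNAs or pseudogenes. Joined where gaps were at most 20 kb, they formed 9 stretches. The 5 centromeric stretches were chr2:73920848-73928650, chr2:73960480-73979588, chr2:74016353-74024904, chr2:74055385-74083604 and chr2:74293285-74305672, so 4 of the 5 lay in the part of the desert far from the Hoxd genes. The 4 telomeric stretches were chr2:75050462-75061760, chr2:75127580-75157394, chr2:75307423-75315996 and chr2:75576262-75609017. Of these, the second is called the middle stretch here. It is 29.8 kb long, lies 362 kb from the end of Hoxd1 and overlaps the long noncoding RNA genes Gm13652, 2600014E21Rik and A330043C09Rik. The fourth is called the far-end stretch, is 32.8 kb long and intergenic, and lies 50.2 kb from Hnrnpa3.

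**Figure D2:**
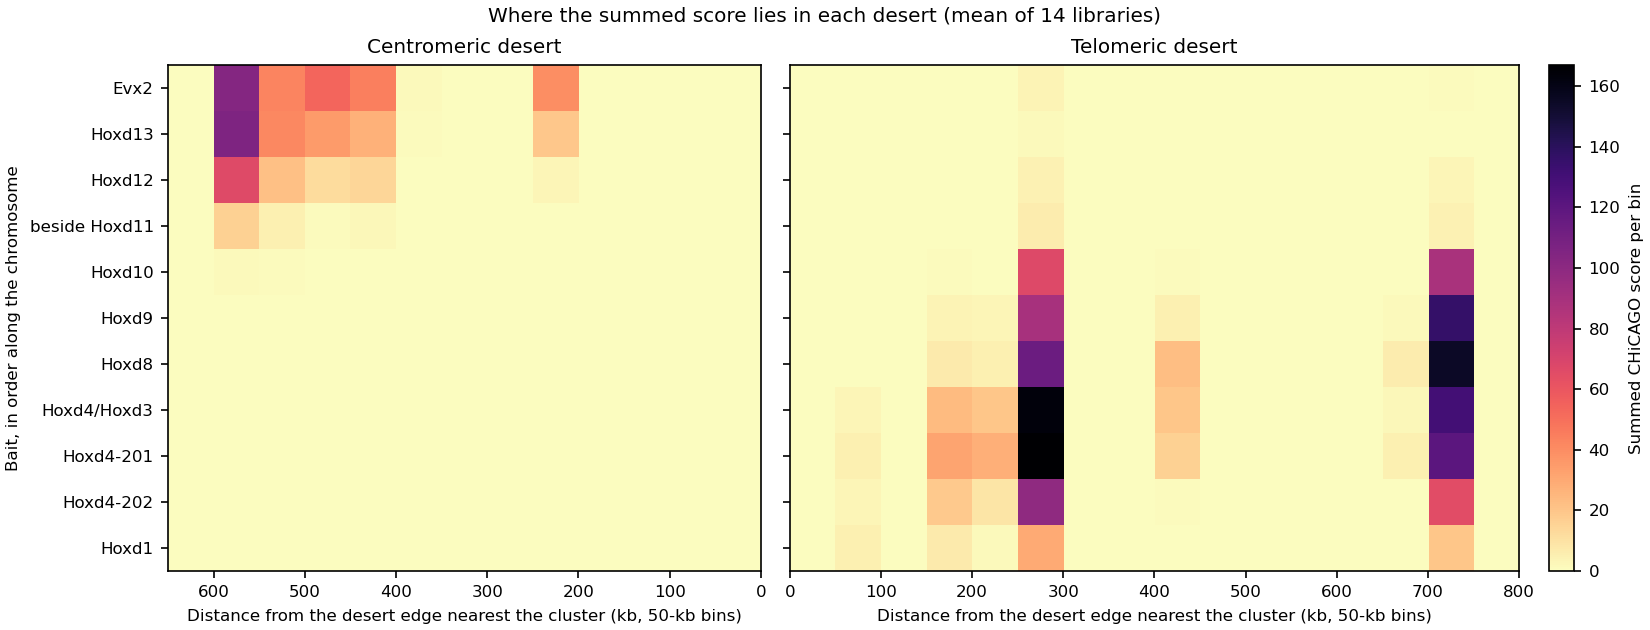
Summed CHiCAGO score in 50-kb bins of each desert (mean of 14 libraries, colour), by distance in kb from the desert edge nearest the cluster, for each bait (rows, in order along the chromosome). Evx2, Hoxd13 and Hoxd12 have most score in the part of the centromeric desert far from the cluster, and the telomeric score of Hoxd10 to Hoxd1 lies mainly in 2 bins, which hold the middle and the far-end stretch.

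The strongest centromeric partner was the same fragment for all 3 genes, chr2:73966283-73967531, an intergenic fragment of 1249 bp in the second stretch. With Evx2, 686 kb away, its scores in the library order above were 23.74, 15.88, 13.37, 21.73, 17.66, 22.46, 17.17, 20.17, 13.40, 12.20, 22.45, 20.71, 15.23 and 22.11. The lowest were those of the knockout libraries and of Mx replicate 1, and the conditions overlapped. The mean score was 18.4 ± 3.94 (SD, n = 14) with Evx2, 17.4 ± 4.65 with Hoxd13 and 12.6 ± 4.49 with Hoxd12. With the bait beside Hoxd11 it was listed in 7 libraries, and with Hoxd10 in 2. A fragment in the first stretch, chr2:73923766-73925294, came second for Hoxd13 at 15.1 ± 5.38 and for Hoxd12 at 11.0 ± 4.93, and chr2:74070757-74071083 in the fourth stretch came second for Evx2 at 13.7 ± 2.40.

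The shortest recurrent centromeric partner, a neighbour of the strongest one, is shown as an example of a short HindIII fragment in the lists. Its length is only the spacing of the HindIII sites at its ends. In its stretch 6 of 7 fragments were recurrent partners, so the contact is not resolved to this fragment. It is a fragment of 208 bp, listed in 12 or more libraries with Evx2 and with Hoxd13. The sequence covers chr2:73966015-73966228 on the plus strand of GRCm38, with a GC content of 39.7%, and the capitals mark the HindIII sites at its ends.
Centromeric partner: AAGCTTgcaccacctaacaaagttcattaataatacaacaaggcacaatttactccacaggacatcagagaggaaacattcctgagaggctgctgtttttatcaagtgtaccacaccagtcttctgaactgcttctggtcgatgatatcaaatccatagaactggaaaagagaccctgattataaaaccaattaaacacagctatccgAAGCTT

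Telomeric partners were led by 1 fragment in the far-end stretch and 1 in the middle stretch. The intergenic fragment chr2:75589587-75590583, 997 bp long, led for Hoxd10 at 16.4 ± 4.51 (SD, n = 14), Hoxd9 at 20.2 ± 5.45 and Hoxd8 at 24.5 ± 6.59. With Hoxd8, 880 kb away, its scores were 19.88, 35.18, 32.35, 29.83, 17.91, 33.58, 27.68, 14.24, 20.11, 17.94, 24.96, 24.72, 18.68 and 25.69, and replicates of 1 condition were as far apart as conditions. The fragment chr2:75140465-75142397, 1933 bp long in an intron of 2600014E21Rik, led for the 3 Hoxd4 baits, at 24.4 ± 5.67 with Hoxd4/Hoxd3, 24.2 ± 6.20 with Hoxd4-201 and 16.1 ± 2.66 with Hoxd4-202. With Hoxd4/Hoxd3, 426 kb away, its scores were 30.68, 25.22, 26.67, 26.69, 26.41, 24.74, 27.01, 32.79, 27.43, 28.32, 16.72, 18.26, 15.08 and 15.60. The 4 pinna libraries were the 4 lowest, and all E10.5 libraries stood above them.

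Hoxd1, the 3′ end of the row, had weak and scattered partners. Its only recurrent partner was chr2:75055096-75055972, of 877 bp and 291 kb away. This fragment was listed in 12 libraries, and its mean over all 14, with unlisted libraries at 0, was 5.70 ± 2.55. It was unlisted in E12.5 pinna replicate 1 and in E14.5 pinna replicate 1. Higher on average, at 6.57 ± 3.89, was chr2:75132180-75133454 at the start of the middle stretch, which was listed in 10 of 10 E10.5 libraries at 7.05 to 11.76 and in 1 of 4 pinna libraries at 5.10.

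The middle and the far-end stretch took different shares along the row. On average over libraries, Hoxd10, Hoxd9 and Hoxd8 had more score in the far-end stretch, and the 3 Hoxd4 baits had more in the middle stretch. The mean share in the middle stretch, of the score in both, was 39.7% for Hoxd10, 36.0% for Hoxd9 and 39.4% for Hoxd8, against 53.5% for Hoxd4/Hoxd3, 56.1% for Hoxd4-201, 59.1% for Hoxd4-202 and 55.5% for Hoxd1, which had no score in either in E14.5 pinna replicate 1. Hoxd9 scored 77.7 ± 24.3 in the middle and 134 ± 15.8 at the far end (SD, n = 14), and the middle was the higher in 0 of 14 libraries. Hoxd4-202 scored 95.2 ± 21.5 and 64.8 ± 12.4, and the middle was the higher in 13 of 14. For Hoxd4/Hoxd3, at 148 ± 27.6 and 129 ± 25.4, the middle was the higher in 11 of 14, and the difference was smaller than the spread over libraries. By these means the crossing lies between Hoxd8 and Hoxd4, but not in every library. In the knockout libraries Hoxd8 already had 53.1% and 52.9% in the middle. In the E14.5 pinna Hoxd4/Hoxd3 had 45.8% and 36.7% there and Hoxd4-201 had 40.7% and 43.4%, and in replicate 2 no bait had more in the middle. The stretches were defined from the same scores, so no test was made.

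**Figure D3:**
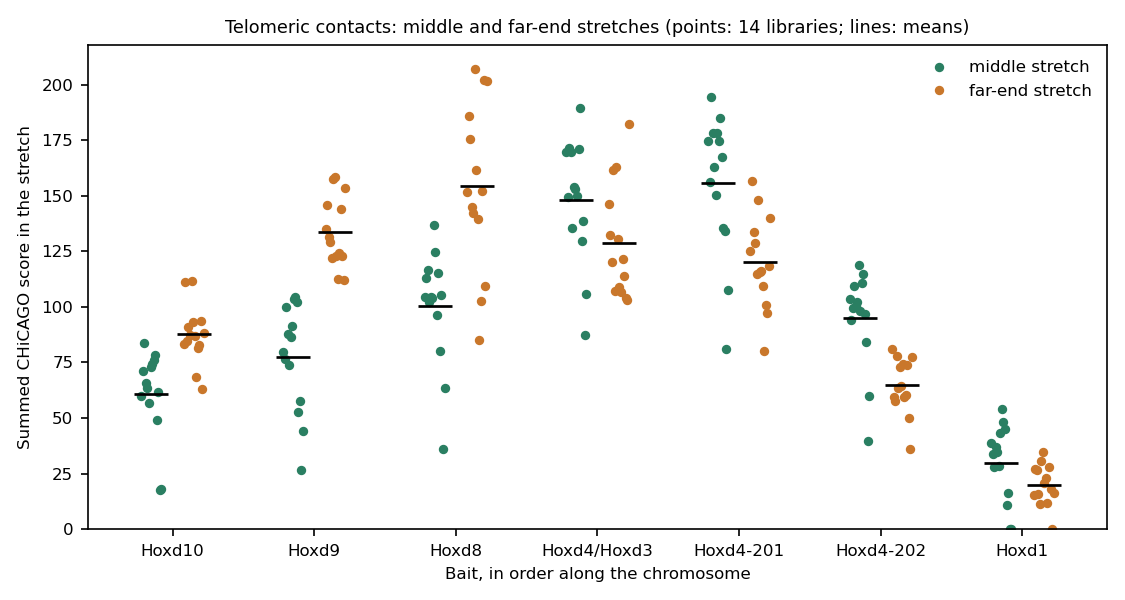
Summed CHiCAGO score in the middle stretch (green) and the far-end stretch (orange) of the telomeric desert for 7 baits in order along the chromosome, with 14 libraries as points and their mean as a line. By the means, Hoxd10, Hoxd9 and Hoxd8 are higher at the far end, and the Hoxd4 baits are higher in the middle. In each bait the lowest 2 points of the middle stretch are the E14.5 pinna libraries.

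Across conditions the balance of these stretches also differed. Over the 7 baits from Hoxd10 to Hoxd1 together, the middle stretch held 49.8% and 45.9% of the score of both in FNP, 52.1% and 50.1% in Mx, 51.0% and 43.4% in Md and 51.1% and 53.8% in PA2. It held 58.4% and 58.3% in knockout PA2, 44.3% and 46.5% in the E12.5 pinna and 34.7% and 31.7% in the E14.5 pinna. Knockout PA2 was above and the E14.5 pinna below all other libraries. The summed middle score was 675 to 813 in the 10 E10.5 libraries, 554 and 598 in the E12.5 pinna and 289 and 399 in the E14.5 pinna. The far-end score did not follow this order, with 649 to 891 in wild-type E10.5 libraries, 565 and 582 in the knockout, 696 and 688 in the E12.5 pinna and 542 and 859 in the E14.5 pinna. Hoxd1 had a middle score of 0 in both E14.5 libraries and of 10.69 to 54.16 in the other 12, and Hoxd10 had one of 17.7 and 18.0 at E14.5 and of 49.1 to 83.9 in the other 12 libraries. This pattern was seen in the values first and was not tested.

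Baits and desert fragments were also searched for a sequence motif. The pattern CC, any 3 bases, AGG, any base and GGC is a core of the sequence bound by CTCF, a zinc finger protein found at domain borders, and it was read on both strands. They occurred in 5 of 25 recurrent telomeric partners (20.0%) and in 14 of 242 other fragments of that desert of at least 150 bp (5.79%), and in 1 of 19 (5.26%) and 8 of 175 (4.57%) in the centromeric desert. Median lengths in the telomeric desert were 2542 bp and 1988 bp. Of the member baits, Hoxd10 and Hoxd4-201 held 2 matches each on the plus strand, and Evx2 and Hoxd12 held 1 each on the minus strand, where 11.7% to 17.1% of chromosome 2 windows of the same lengths held any. Among the 5 telomeric partners the match lay on the minus strand in 4. The leading middle-stretch fragment, chr2:75140465-75142397, had no match, and neither did the Hoxd13, Hoxd9, Hoxd8, Hoxd4/Hoxd3, Hoxd4-202 and Hoxd1 baits. To show what a match looks like, 5 sequences were picked from the regions that had one, on the strand of the match and with the motif in capitals. They are from the Hoxd10 bait (chr2:74694370-74694431, plus), the Hoxd4-201 bait (chr2:74716167-74716228, plus), the partner chr2:75055096-75055972 in the first stretch (chr2:75055340-75055401, minus), another fragment of the middle stretch (chr2:75151148-75151209, minus) and the leading far-end fragment (chr2:75590388-75590449, minus), all on GRCm38.
Hoxd10 bait: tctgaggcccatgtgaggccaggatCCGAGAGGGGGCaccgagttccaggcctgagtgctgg
Hoxd4-201 bait: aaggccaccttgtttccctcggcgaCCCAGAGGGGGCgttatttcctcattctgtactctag
First telomeric stretch: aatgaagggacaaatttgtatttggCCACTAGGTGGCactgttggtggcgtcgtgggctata
Middle stretch: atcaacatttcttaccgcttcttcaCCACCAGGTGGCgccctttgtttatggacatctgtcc
Far-end stretch: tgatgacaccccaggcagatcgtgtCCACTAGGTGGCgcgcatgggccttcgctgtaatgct

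The share of chromosome 2 windows with the motif was 2.14% and 2.42% at the lengths of the first-stretch and the leading far-end fragment, and 20.3% at the 9897 bp of the middle-stretch fragment. For the other matching telomeric partners it was 15.4% and 14.3%. Contacts are not resolved to single fragments within a stretch. At the full lengths of the telomeric stretches the share was 22.6%, 45.7%, 17.9% and 48.4%, and all but the third held a match. A match in letters is not a measurement of binding, and none was made here.

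Beyond the deserts, Hoxd13 and Hoxd12 reached fragments more than 1 Mb away. Over and beside Chrna1, a receptor subunit gene of muscle, 8 fragments within chr2:73544993-73588424 were partners of the 5′ genes. Hoxd12 listed chr2:73565292-73569805, 1102 kb away, in all 14 libraries at 10.4 ± 3.34 (SD, n = 14), from 6.75 to 16.72. Hoxd13 listed it in 11 libraries, and Evx2 in 8. With Hoxd13 its scores were 14.57, 15.09, 8.53, 15.76, 9.35, 10.70, 9.58, 5.01, 10.73, 13.59, 0, 7.98, 0 and 0, so that it was missing in 3 of the 4 pinna libraries. The bait of Sp9 (chr2:73267496-73280399), a zinc finger gene of limb and brain, was a partner of Hoxd13 at 1.38 Mb in all 10 E10.5 libraries at 7.32 to 15.63 and in 1 of 4 pinna libraries at 7.35. It was listed in 5 libraries with Evx2, 6 with Hoxd12, 4 with Hoxd10 and at most 3 with each other member. Hoxd13 with Dlx2 and Hoxd12 with Dlx1, homeobox genes of the arches, were listed in both FNP libraries and in no other.

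Inside the row, Evx2 was listed with the bait beside Hoxd11 in 10 of 10 E10.5 libraries, at 7.73, 8.33, 8.14, 7.67, 6.00, 6.36, 9.89, 6.78, 7.72 and 7.15, and in 0 of 4 pinna libraries. Hoxd12 was listed with it in 9 libraries, and the mean over all 14, with unlisted libraries at 0, was 4.14. The bait beside Hoxd11 is only 18.6 kb from the Evx2 bait and 1.85 kb from the Hoxd12 bait. The paper states that most Hi-C-based methods do not separate contacts this close from background. Evx2 with the Hoxd4-202 bait was listed in 6 libraries, both of PA2, both of knockout PA2, FNP replicate 1 and E12.5 pinna replicate 1, at 5.66 to 6.41, just above the lowest score listed.

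For the comparison of conditions, the scores of partners at 100 kb to 1 Mb were summed for each bait and side, and log2(5 + sum), centred on each library's median, was tested with limma over all 31309 bait sides. Of the 20 sides of the members 14 had a partner in 2 or more libraries and were tested, and the other 6 were centromeric sides of Hoxd9 to Hoxd1. Over the 7 conditions, 1 of the 14 passed an adjusted p of 0.05, against 3.98% of all sides. It was the telomeric side of Hoxd1 (adjusted p = 0.0355). At an unadjusted p below 0.05 there were 6 of 14, against 21.6%. Without E14.5 pinna replicate 2 the adjusted p of Hoxd1 was 0.00743, and without any 1 of the other 13 libraries it no longer passed, at 0.0547 to 0.101.

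**Figure D4:**
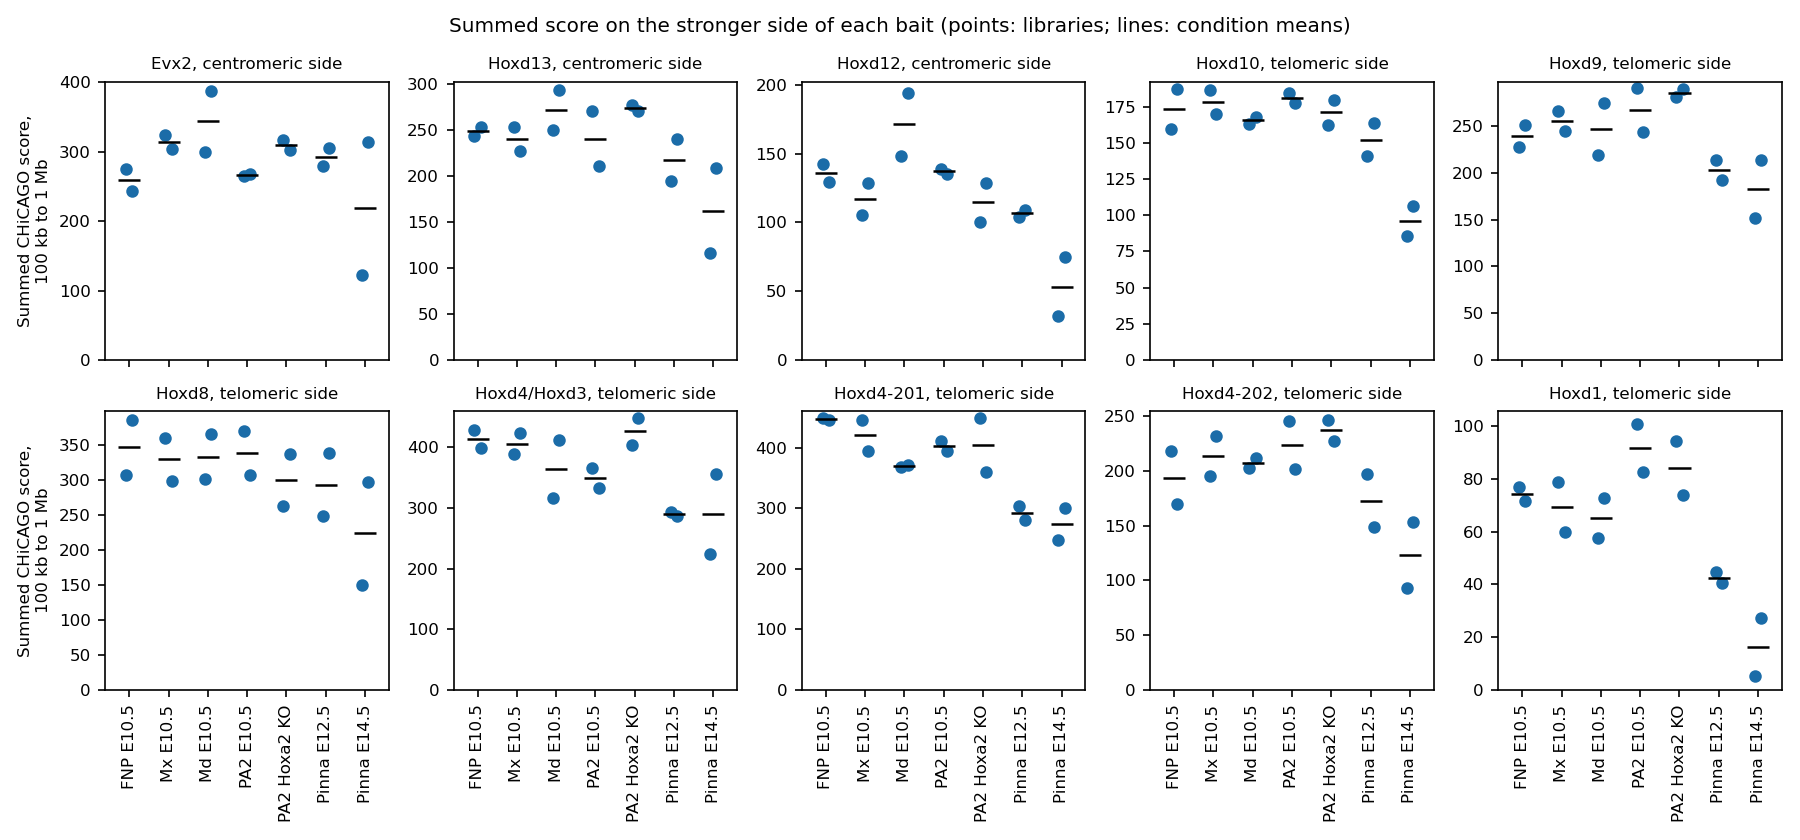
Summed CHiCAGO score of partners at 100 kb to 1 Mb on the stronger side of each of the 10 baits (one panel each, vertical axes from 0 and on separate scales), by condition, with libraries as points and condition means as lines. E14.5 pinna replicate 1 is the lowest point in each of the 10 panels, and for Hoxd1 all 4 pinna libraries lie below all E10.5 libraries.

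The pinna was compared with E10.5 PA2, from which it grows, and Hoxd1 had fewer telomeric contacts there. Its summed telomeric score was 100.75 and 82.60 in PA2, 44.74 and 40.36 in the E12.5 pinna and 5.11 and 27.41 in the E14.5 pinna. The groups did not overlap, and the E14.5 libraries were the lowest. The other E10.5 libraries, at 76.82 and 71.53 in FNP, 78.70 and 59.93 in Mx, 57.45 and 72.84 in Md and 94.44 and 73.71 in knockout PA2, all stood above the pinna. Hoxd1 fell by 1.71 on the log2 scale (SE 0.378, adjusted p = 0.0341), which is 3.28-fold on the scale of 5 + sum. Of the 14 sides 1 was called, against 1.87% of all sides. It was lower, against 0.898% of all, and none was higher, against 0.968%. Hoxd1 no longer passed without either library of FNP, Mx, PA2 or the E12.5 pinna, or without Md replicate 2, at adjusted p values of 0.0504 to 0.253.

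The other member sides did not pass. The median difference of the 14 sides was -0.48, against 0.0017 for all sides. At an unadjusted p below 0.05 there were 6 of 14, against 14.9% of all sides, and 7.02% of all sides were below it and lower. The groups did not overlap, with the pinna lower, in 7 of 14, against 9.45% of all sides. Hoxd4-201, the bait with the highest sums, had telomeric scores of 411.27 and 394.44 in PA2 and of 304.01, 280.56, 248.46 and 300.58 in the pinna, with a difference of -0.50 (SE 0.149, adjusted p = 0.107). The Hoxd12 bait had centromeric scores of 139.07 and 135.00 in PA2 and of 104.10, 108.82, 32.03 and 74.57 in the pinna, with a difference of -0.87 (SE 0.279, adjusted p = 0.141). For Evx2 the difference was -0.14 (SE 0.265), and the groups overlapped. E14.5 pinna replicate 1 had the lowest sum of the 14 libraries for the stronger side of all 10 baits, while its 145549 listed pairs within chromosomes were in the range of the others. Without it the difference of Hoxd1 was -1.30 (adjusted p = 0.0338), and without Md replicate 1 and E12.5 pinna replicate 2 it was -1.69 and no longer passed (adjusted p = 0.0972). Without E14.5 pinna replicate 1, 1 member side was called in this comparison, as with all libraries. The sizes of the other differences in that fit are not reported here. In a sorted population, fewer cells with a contact and a weaker contact per cell cannot be told apart.

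Between Hoxa2-expressing CNCCs (PA2 and pinna, 6 libraries) and Hox-negative CNCCs (FNP, Mx and Md, 6 libraries) no member side passed. Neighbouring baits share partners and all sides share libraries, so the 14 sides are not independent in this or the other comparisons. Of all sides 3.97% were called, 2.1% higher and 1.87% lower. At an unadjusted p below 0.05 there were 6 of 14 member sides, all lower, against 9.07% lower among all. The median difference of the members was -0.29 and that of all sides -0.0019. Hoxd4-201 was nearest to the threshold, with telomeric scores of 368.46 to 449.02 and a median of 421 in the Hox-negative libraries and of 248.46 to 411.27 and a median of 302 in the Hoxa2-expressing ones, and a difference of -0.37 (SE 0.0992, adjusted p = 0.0536). The PA2 libraries lay among the Hox-negative ones, and the 4 pinna libraries lay below. Hoxd12 followed on its centromeric side with -0.60 (SE 0.186, adjusted p = 0.0913) and Hoxd1 on its telomeric side with -0.77 (SE 0.252, adjusted p = 0.113). For Hoxd12 the PA2 scores, 139.07 and 135.00, lay within the Hox-negative range of 105.10 to 194.25. For Hoxd1 they were 100.75 and 82.60, above the Hox-negative range of 57.45 to 78.70. All Hox-negative libraries were E10.5 and the 4 pinna libraries were later, so Hoxa2 expression and stage cannot be told apart in this contrast. The groups overlapped for all 14 sides, where 0.629% of all sides did not overlap and were lower.

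Of 414 pairs of the member baits tested among 286702 with limma on asinh of the score, none passed, against 0.0234% of all pairs. At an unadjusted p below 0.05 there were 40, all lower in the Hoxa2-expressing group, against 6.49% of all pairs in both directions. The share of all pairs that were lower was not counted. Neighbouring baits share partners, so the member pairs are not independent, and the Hoxa2-expressing group holds the later pinna libraries. Nearest was Hoxd13 with chr2:73982592-73987199, between the second and the third centromeric stretches, which was listed in 6 of 6 Hox-negative libraries at 6.53 to 15.05 and in 0 of 6 Hoxa2-expressing ones (adjusted p = 0.0757). Hoxd8 with the third telomeric stretch, chr2:75307423-75315996, was listed in 5 of 6 and 0 of 6 (adjusted p = 0.275). Evx2 with chr2:73975729-73979588, at the end of the second stretch, was listed in 6 of 6 at 9.35 to 11.79 and in 2 of 6 (adjusted p = 0.269).

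In Hoxa2 knockout PA2 against wild-type PA2, no member side passed either, against 0.485% of all sides (0.0862% higher and 0.399% lower, which is 27 and 125 sides, or 155 and 206 without centring). The largest difference was on the telomeric side of Evx2. Its summed scores were 19.46 and 18.59 in the knockout and 0 and 0 in wild-type PA2, from 3 listed fragments per knockout library, with a difference of 2.30 (SE 0.615, adjusted p = 0.105). Among the other 10 libraries 3 had a score there, 11.12 in Mx replicate 2, 5.57 in Md replicate 2 and 5.72 in E12.5 pinna replicate 1. Hoxd12 had telomeric scores of 19.48 and 14.52 in the knockout and of 11.52 and 0 in wild-type PA2, with a difference of 1.31 (SE 0.708, adjusted p = 0.493). In the knockout these sums come from 2 or 3 fragments of the middle stretch, none scored above 8.87. The stronger sides differed less, from -0.22 (SE 0.322) for Hoxd12 to 0.32 (SE 0.213) for Hoxd4/Hoxd3. At an unadjusted p below 0.05 there was 1 of 14 sides, the telomeric side of Evx2, which was higher in the knockout. Of all sides 12.8% were below that p in both directions together, and 7.6% were below it and lower. Groups of 2 libraries did not overlap in 5 sides with the knockout higher, against 14.7% of all sides, and in 2 with the knockout lower, against 21.7%. Both groups hold 2 libraries, the sorting gate differs, and the same PA2 libraries serve as the reference of the pinna.

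**Figure D5:**
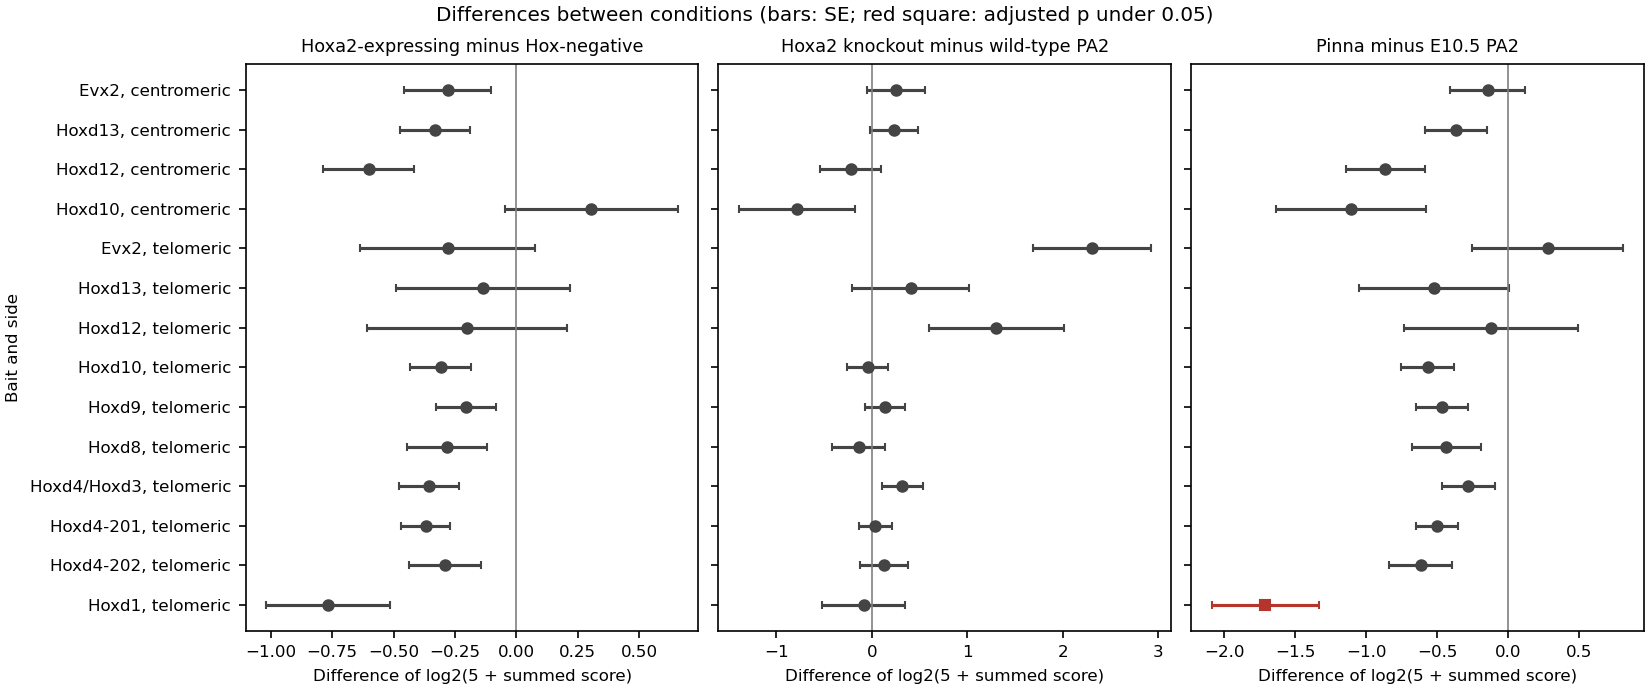
Differences between groups (points, with SE as bars) in log2(5 + summed score), centred per library, for the 14 tested sides of the member baits in 3 comparisons, each with its own horizontal scale. Only the telomeric side of Hoxd1 in the pinna against E10.5 PA2 passed (red square, -1.71), and the widest bars belong to weaker sides such as telomeric Evx2, with few listed fragments.

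On other chromosomes the member baits had 304 distinct pairs. Only 1 of them was listed in 2 libraries, Evx2 with chr6:17226792-17229635, a fragment without a start site, at 12.45 and 12.63 in the 2 knockout libraries. Pairs of the members with a list of 38 genes, mainly of the Hoxa, Hoxb and Hoxc clusters, numbered 9 on other chromosomes, and each was in 1 library.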

How the data were processed

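PCHi-C lists of 14 libraries were used, in groups taken from the sample labels. Per the paper's methods, HiCUP served the authors for mapping (GRCm38/mm10) and CHiCAGO for scoring. They deposited, for each library, pairs of a bait and another HindIII fragment with their CHiCAGO score of 5 or more. The deposited score depends on the depth and background of its own library, and read counts were not analysed here. The labels list bcl2fastq 2.17. Replicates are described there as independent, from pooled embryos. The files of E12.5 pinna replicate 2 and Md replicate 1 are named as merged, with no further account in the sources used here.

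Baits were assigned with GENCODE vM21 start sites and a HindIII digest of GRCm38, which all 38326 chromosome 2 fragments of the lists matched. Deserts run from Lnpk and Mtx2 to the next protein-coding gene. The members and lists were chosen with earlier results of these data known. Partners named are, for each bait and desert, the 3 with the highest mean score and those in 12 or more libraries. Fragments and genes outside this rule, the stretches, the motif and the shares of the stretches were chosen after values were seen.

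Distal scores (100 kb to 1 Mb, 1 row per bait and side with a partner in 2 or more libraries) were compared on log2(5 + sum), centred on each library's median, in 1 limma fit of 7 group means, and pairs on asinh of the score with 2 group means (lmFit, eBayes with a trend, Benjamini-Hochberg over all rows, adjusted p threshold 0.05). Both steps were tested on simulated data. Alternatives were the distance window, score threshold, cap, centring, pseudocount, filters, design, equal list lengths and each library left out. The fits used R 4.3.3 with limma 3.58.1, and tables were made with numpy 2.4.6 and pandas 2.3.3 under Python 3.11.15.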

Additional observations from a re-analysis of the deposited data

Results flagged for a closer look

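Values that stood apart from the rest of their group were looked for in 42 groups of 4 to 6 libraries. Chance picks about 1 in 20 where values are normally distributed and groups are separate. Here the pinna group lies inside the Hoxa2-expressing one. Where only 1 library had a listed partner, the rest sat at the floor and that library was bound to be picked, so the rate does not hold there. The values are log2(5 + summed score) at 100 kb to 1 Mb, centred per library, and no explanation was tested. On the centromeric side of Evx2, E14.5 pinna replicate 1 was at 7.01, against 8.05 to 8.29 in the other 5 Hoxa2-expressing libraries and 8.15 to 8.29 in the other 3 pinna libraries. On the telomeric side of Evx2, E12.5 pinna replicate 1 was at 3.42, where the others had no listed partner. The telomeric side of Hoxd13 was at 3.34 in PA2 replicate 1 among Hoxa2-expressing libraries and at 4.15 in Md replicate 1 among Hox-negative ones, again beside libraries without a partner. The centromeric side of Hoxd10 was at 4.26 in FNP replicate 2 and at 3.35 in E12.5 pinna replicate 1, with no partner in the rest of each group. The telomeric side of Hoxd4/Hoxd3 was at 8.30 in Md replicate 1, against 8.59 to 8.76 in the other Hox-negative libraries.

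Pairs of the Hoxd and Evx2 baits with other chromosomes, which no comparison used, numbered more than 3 in 9 libraries. There were 6 and 5 in FNP, 4 and 6 in Mx, 86 in Md replicate 1, 5 and 4 in PA2, 4 in knockout replicate 2 and 176 in E12.5 pinna replicate 2. The libraries with 86 and 176 are those in which 46.5% and 62.7% of all listed pairs join different chromosomes.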

How the results depend on the processing

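The number of member sides called over the 7 conditions, 1 in the fit reported, was 0 without centring, 7 with quantile normalization, 0 with numbers of partners in place of scores, 2 with either wider window (20 kb to 1 Mb or 100 kb to 2 Mb), 5 with scores of 10 or more, 0 with a pseudocount of 1, 3 with partners in at least 7 libraries, 0 with no filter, 2 with the replicate number as a block, 0 without Md replicate 1 and E12.5 pinna replicate 2, 0 with scores of 10 or more and no centring (chosen after seeing the data), and 0 to 3 with 1 library left out, with 3 only without E14.5 pinna replicate 2. Over all sides the calls ran from 526 to 2162. For Hoxa2-expressing against Hox-negative libraries, 0 became 2 with quantile normalization, 1 with equal list lengths, 1 with a pseudocount of 1, 2 with partners in at least 7 libraries, 1 with the replicate block, and 0 to 5 with 1 library left out, with 5 only without E14.5 pinna replicate 2, and all calls ran from 357 to 1888. For knockout against wild-type PA2, 0 became 7, all higher, with scores of 10 or more, and was 0 with those scores and no centring, so that the calls need the centring. The count was 0 with each library left out, and all calls ran from 0 to 1197. Calls over all sides are given here as ranges. The member counts of single alternatives therefore have no share of all sides beside them and are not read against one. For pinna against PA2, 1 became 0 with numbers of partners, with scores of 10 or more, with a pseudocount of 1, with no filter, without Md replicate 1 and E12.5 pinna replicate 2, and with only the groups compared, and was 0 to 2 with 1 library left out (2 only without E14.5 pinna replicate 2), with all calls between 45 and 959. The Hoxd1 difference was below 0 in all 29 alternatives, from -2.82 to -0.44, and passed in 13 (adjusted p from 0.00341 to 0.777). It lost its call without either PA2 library (0.253 and 0.199), either E12.5 pinna library (0.0617 and 0.0748), either FNP library (0.0529 and 0.0527), either Mx library (0.0531 and 0.0532) or Md replicate 2 (0.0504). For pairs, 0 became 31 (3 higher and 28 lower) with 6 condition means, where all pairs gave 17496 calls, 0 with each library left out, and 3 to 17496 calls over all pairs. The telomeric share of Hoxd12 fragments, 6.32%, was 0% at scores of 10 or more, and for the other baits the shares moved by less than 1 SD. Elsewhere the cause was not tested.

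The fits reported did not pair the samples by replicate number. Deviations of same-numbered libraries correlated at -0.00093 to 0.0960 over 21 pairs of conditions, with a median of 0.0299. The block left the calls for pinna against PA2 (1), the knockout (0) and pairs (0) as they were. It moved those over the 7 conditions and for Hoxa2-expressing against Hox-negative libraries, as given above. With unknown depth and a floor at a score of 5, weak sides such as telomeric Evx2 or Hoxd1 in the pinna can drop to 0 through 1 or 2 fragments.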

Other observations

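The telomeric side of Hoxd4-201, the member side with the highest mean, was set against 31181 other bait sides over the 14 libraries. The most alike by Pearson correlation of the centred log2 values were the higher-coordinate sides of the baits of Inafm2 (chr2:118745371-118747241, r = 0.94), Gm22616 (chr1:14182336-14183084, r = 0.93) and Six4 (chr12:73109153-73113642, r = 0.93). These are the extremes of a large set, the points share library and depth, and nothing was tested.

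Toward the telomeric end, Hoxd10 was listed with the bait of Hnrnpa3, chr2:75656289-75660056, in Mx replicate 2 at 7.67, in both E12.5 pinna libraries at 8.94 and 8.26 and in E14.5 pinna replicate 1 at 5.04. It was listed with the bait of Ttc30a1, chr2:75980982-75989117, in Md replicate 1 at 5.39, in E12.5 pinna replicate 2 at 6.52 and in both E14.5 pinna libraries at 5.84 and 5.11. Both pairs were seen mostly in the pinna, and the difference was not tested for either.

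At Pax6, an eye and brain homeobox gene about 31.0 Mb away, fragments were listed with 8 of the 10 baits, each pair in 1 to 3 libraries. The highest score was 14.1, with Hoxd4-202, and the pair in 3 libraries, of Hoxd4/Hoxd3, reached 5.45.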
